A study of Scomber scombrus with 32 samples.

Results

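Expression of 5 genes known for their roles in fat cells was followed across 2 muscle cell lines of the Atlantic mackerel (Scomber scombrus), Mack1 and Mack2. The genes were taken by identifier from the 24189 genes of the count table: pparg (133978082), cebpa (133983090), plin2 (134005995), fabp4a (133996184) and fabp4b (133983461). The study sequenced poly(A) RNA of 32 libraries in 10 groups. Mack1 gave 3 libraries in each of 8 groups, as cultures labelled p77 (post-immortalization) and p27 (pre-immortalization), each in lipid loading, serum reduction, serum starvation and proliferation. Mack2 gave 4 libraries in each of 2 groups, labelled p180 (post-immortalization) and p2 (pre-immortalization), both proliferating. Proliferating cells grew in L-15 medium with fetal bovine serum, FGF2 (a growth factor), HEPES buffer and antibiotics. In lipid loading, confluent cells were fed that medium plus insulin, the phosphodiesterase inhibitor IBMX, the glucocorticoid dexamethasone and a lipid mixture. In serum reduction, confluent cells were fed L-15 with less serum, buffer and antibiotics, and in serum starvation they received no further feeding. Lipid loading kept the serum and FGF2 of proliferation, so between these states density and the added compounds change together. Between proliferation and serum reduction or starvation, density and the supply of serum and growth factor change together. Between lipid loading and those confluent states, that supply and the added compounds do. Every comparison with serum starvation also changes feeding itself, and the serum and growth factor left in that medium are not given. The parts of what changes together cannot be told apart. The labels call the cells muscle stem cells, except Mack2 p180 replicate 1, which carries the wording satellite cell. They give no number of fish, so differences between stages or lines may belong to the cultures sampled.

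In mammals, fat cell formation is driven by a pair of transcription factors that sustain each other. PPARγ, encoded by pparg, is a nuclear receptor bound by fatty acids and is the central regulator of the fat cell programme, and C/EBPα, encoded by cebpa, is its partner in late differentiation. Perilipin 2, encoded by plin2, coats lipid droplets in many cell types, muscle included, and is known to accumulate when cells take up fatty acids. FABP4 carries fatty acids within mature mammalian fat cells and macrophages, and the RefSeq annotation of this fish names a pair of genes after it, fabp4a and fabp4b. No sequence of these genes was used here.

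Levels are given in CPM, the raw count of a gene divided by the library's total in M, with totals scaled by TMM (a correction for library composition) over all 32 libraries. Libraries held between 16.9 and 32 M counts. A floor of 3 counts, taken here as the most that an observed count of 0 allows, comes to 0.168 CPM in Mack2 p180 replicate 1. Differences between groups were tested with edgeR's quasi-likelihood method and are given on the log2 scale ± SE, with Benjamini-Hochberg adjustment over all genes tested and a threshold of 0.05. For edgeR this SE was derived from the test, as the size of the log2 fold change divided by the square root of its F statistic. It is therefore only a rough measure of precision where counts are few. CPM are means ± SD unless single libraries are given. The low-count filter kept 4 of the 5 genes in the Mack1 fit (15683 genes) and 3 of the 5 in the Mack2 fit (13805 genes). It dropped fabp4b from both and cebpa from the Mack2 fit. The labels speak of experimental replicates without saying whether these were separate cultures, so the p-values reflect only how far these libraries spread, which may be technical. Libraries of 1 group differed by more than counting error in each of the 36 replicate pairs (chi-square per degree of freedom 3.25 to 84.1). The largest values, 84.1 and 80.6, set Mack1 p77 serum starvation replicate 1 against the other 2 libraries of its group, which differed from each other by 6.32. Where leaving that library out changed a call on the 5 genes, the value without it is given beside the result. Groups that do not overlap are common in these data: over the 17 comparisons of 2 groups, between 31.5% and 74.4% of all genes tested did not overlap in CPM.

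The lines were checked against marker lists, given as the summed CPM of each list per library. Of the fat cell list, 7 genes were matched by symbol (pparg, cebpa, cidec, lpla, lipea, lipeb and cfd), and its sum was mostly the lipoprotein lipase gene lpla. The sum ran from 1175 to 1308 in p77 lipid loading, against 251 to 260 in p77 proliferation. At p27 it ran from 1401 to 1520 in lipid loading, against 35.5 to 49.9 in proliferation. The other confluent states lay between these. In serum reduction the sum was 417 to 473 at p77 and 434 to 510 at p27. In serum starvation it was 280 to 316 at p77 and 254 to 284 at p27. In Mack2 it was 128 to 137 at p180, against 141 to 172 at p2. The complement factor gene cfd, a fat cell product in mammals, had 0 counts in 8 of the 10 groups, and the droplet gene cidec had none in serum starvation. The 12 skeletal muscle markers moved with state too, with 14225 to 16985 CPM in p77 lipid loading, against 22.1 to 34.7 in p77 proliferation. At p27 they summed to 4121 to 5072 CPM in lipid loading, against 74.7 to 104 in proliferation. The other confluent states lay above lipid loading. Serum reduction had 30426 to 31466 CPM at p77 and 15586 to 20768 CPM at p27. Serum starvation had 19091 to 23248 CPM at p77 and 17525.5 to 18846 CPM at p27. The 8 fibroblast and fibro-adipogenic precursor markers moved as well, at 20907 to 23399 CPM in p77 lipid loading, against 7487 to 7836 in p77 proliferation. At p27 they summed to 27740 to 28921 CPM in lipid loading, against 6280 to 6800 in proliferation. Serum reduction had 20463 to 21446 CPM at p77 and 20762 to 24527 CPM at p27. Serum starvation had 10088 to 13930.5 CPM at p77 and 5369 to 5968 CPM at p27. The muscle stem cell marker pax7a had 0 counts in the 3 confluent p77 groups, and the precursor marker thy1 was found in p77 lipid loading alone. In Mack2 the muscle sum was 2952 to 3219 CPM at p180, against 10472 to 11646 at p2, and the fibroblast sum was 5746 to 6082 CPM at p180, against 17657 to 19854 at p2. The 7 endothelial markers summed to between 30.4 and 32.6 CPM in p77 proliferation and between 13.3 and 15.4 CPM in p27 proliferation. Over the other 8 groups they summed to 1.18 to 4.17 CPM. In p77 proliferation cdh5, pecam1a and kdr had 0 counts, and 2 of the 7 genes reached a mean of 1 CPM. In p27 proliferation pecam1a and kdr had 0 counts, and again 2 genes reached 1 CPM. Over all groups the 8 macrophage and blood markers summed to 4.0 to 17.4 CPM, and the 8 genes matched to the pigment and neural crest list to 1.88 to 25.3 CPM. Among the latter, dctd was matched to dct by the ending of its symbol alone and is no pigment gene. That sum is therefore not one of pigment and neural crest markers only. The 8 cartilage and bone markers summed to 24.7 to 674 CPM and the 5 liver markers to 0.0446 to 5.81 CPM over all groups. Whether these shifts had a part in the results below was not tested.

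**Figure D1:**
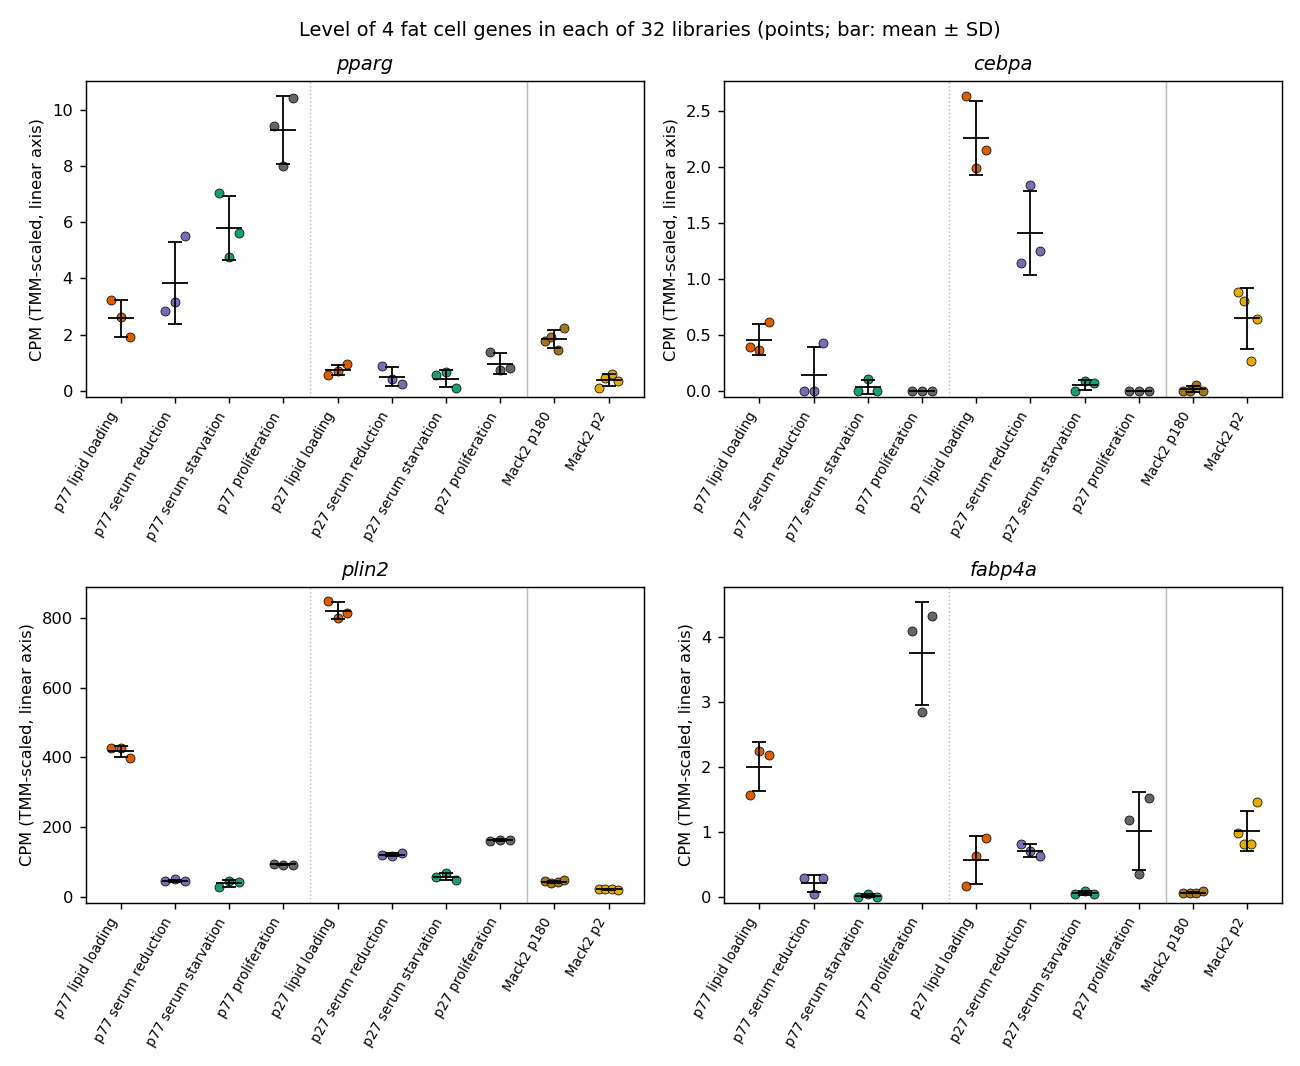
Level of pparg, cebpa, plin2 and fabp4a in each library, in CPM on linear axes that differ between panels. Points are libraries, horizontal bars with whiskers are group means ± SD (n = 3 for each Mack1 group, n = 4 for each Mack2 group). The 12 Mack1 p77 libraries lie between 1.92 and 10.4 CPM for pparg, all above the 12 p27 libraries, while plin2 is highest in the lipid loading libraries.

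The regulator pparg was higher at p77 than at p27 in every Mack1 state, and at neither stage was it higher in lipid loading than in proliferation. In p77 cultures it had 3.23, 2.62 and 1.92 CPM in lipid loading, 2.83, 3.15 and 5.50 CPM in serum reduction and 7.02, 4.78 and 5.63 CPM in serum starvation, against 9.43, 8.01 and 10.4 CPM in proliferation. Proliferation lay clear above the other p77 states, followed by serum starvation, serum reduction and lipid loading, each of which overlapped with its neighbour. In p27 cultures the values were 0.576, 0.707 and 0.949 CPM in lipid loading, 0.877, 0.412 and 0.243 CPM in serum reduction and 0.557, 0.658 and 0.105 CPM in serum starvation, against 1.39, 0.729 and 0.803 CPM in proliferation. From proliferation down through lipid loading, serum reduction and serum starvation, each p27 state overlapped with the next. These p27 libraries hold between 3 and 33 pparg counts each, so their precision is low, whereas the p77 libraries hold between 56 and 251. In bulk RNA, fewer cells of a type and less RNA per cell cannot be told apart, here and below.

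Each of the 12 p77 libraries (1.92 to 10.4 CPM) lay above each of the 12 p27 libraries (0.105 to 1.39 CPM), whatever the state. Of the 15683 genes tested, 24 (0.153%) had all p77 libraries above all p27 libraries in this way. The log2 fold change of p77 against p27 was 1.80 ± 0.43 in lipid loading (adjusted p = 0.00163), 2.90 ± 0.44 in serum reduction (adjusted p = 8.8e-06), 3.72 ± 0.45 in serum starvation (adjusted p = 7.61e-07) and 3.25 ± 0.42 in proliferation (adjusted p = 9.6e-07). Among all genes tested, 221 or 1.41% were higher at p77 in all 4 states. The highest group mean of pparg in Mack1 was 21.1-fold the lowest, with p77 proliferation at the top and p27 serum starvation at the bottom.

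Within a stage, no state had more pparg than proliferation. In p77 cultures it fell in lipid loading (2.59 ± 0.656 CPM against 9.29 ± 1.22 CPM in proliferation, n = 3 each), by 1.86 ± 0.38 on the log2 scale (adjusted p = 0.000114). It also fell in serum reduction (3.83 ± 1.46 CPM), with a log2 fold change of -1.25 ± 0.37 and an adjusted p of 0.00418. For p77 serum starvation (5.81 ± 1.14 CPM) the log2 fold change was -0.67 ± 0.36 and did not pass (adjusted p = 0.106), with the 3 libraries below all proliferating ones, in a comparison where 65.4% of all genes did not overlap. Without p77 serum starvation replicate 1 it was -0.82 (adjusted p = 0.0678). With only the 2 compared groups in the fit it did pass (-0.60, adjusted p = 0.0353). In p27 cultures the log2 fold changes against proliferation were -0.41 ± 0.46 in lipid loading (adjusted p = 0.453), -0.91 ± 0.47 in serum reduction (adjusted p = 0.0983) and -1.14 ± 0.49 in serum starvation (adjusted p = 0.0444). The last of these is the single p27 call. Without p27 proliferation replicate 1 it was -0.79 (adjusted p = 0.222), without p27 serum starvation replicate 3 it was -0.65 (adjusted p = 0.242), and with only the compared groups fitted it was -1.13 (adjusted p = 0.104). Serum reduction passed when its replicate 1 was left out (-1.53, adjusted p = 0.0159). In p77 cultures lipid loading had less pparg than serum starvation (-1.19 ± 0.38, adjusted p = 0.00957), and without p77 lipid loading replicate 3 this was -1.01 (adjusted p = 0.0513). The difference between the stages in the lipid loading response was -1.45 ± 0.60 and did not pass (adjusted p = 0.0816). It passed without p27 proliferation replicate 1 (-1.80, adjusted p = 0.0481) and with only the compared groups fitted (-1.47, adjusted p = 0.0193).

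The partner regulator cebpa was found in the confluent Mack1 states and in no proliferating Mack1 library. In p77 cultures it had 0.391, 0.368 and 0.616 CPM in lipid loading, 0, 0 and 0.427 CPM in serum reduction and 0, 0.110 and 0 CPM in serum starvation. In p27 cultures it had 2.63, 2.00 and 2.16 CPM in lipid loading, 1.15, 1.84 and 1.25 CPM in serum reduction and 0, 0.0877 and 0.0701 CPM in serum starvation. The order ran from p27 lipid loading through p27 serum reduction to p77 lipid loading with no overlap, and the remaining groups overlapped. The 6 proliferating Mack1 libraries had 0 counts, and of the 24 Mack1 libraries 13 held a count. Both lipid loading groups lay clear of proliferation, which at 0 counts allows up to 3 counts per group.

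Against that floor, cebpa was at least 11.6-fold higher in p77 lipid loading than in proliferation (39 counts against 0, adjusted p = 0.00178) and at least 52.5-fold higher in p27 lipid loading (162 counts against 0, adjusted p = 4.65e-05). In p27 serum reduction it was at least 33.0-fold higher (128 counts against 0, adjusted p = 0.000129). The p77 serum reduction value, at least 3.17-fold higher with an adjusted p of 0.0291, rests on the 9 counts of replicate 3 alone. Without that library neither group held a count, and leaving out any p77 proliferation replicate gave adjusted p from 0.0609 to 0.0655. Serum starvation did not pass at either stage (3 counts against 0 at p77, adjusted p = 0.19, and 4 counts against 0 at p27, adjusted p = 0.153). Such bounds set the group at 0 counts to its floor and take the count of the other group as observed, without its counting error. The intervals on the ratios of counts below cover counting error only.

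Between the confluent states, cebpa did not pass the test in lipid loading against serum reduction. The log2 fold changes were 1.69 ± 1.03 at p77 (adjusted p = 0.168) and 0.64 ± 0.84 at p27 (adjusted p = 0.541), and at p77 the difference passed without serum reduction replicate 3, the one library of its group with counts (adjusted p = 0.00295), and with limma-trend (2.35, adjusted p = 0.00935). Lipid loading exceeded serum starvation in p27 cultures by 5.31 ± 1.13 (adjusted p = 0.000319). In p77 cultures the counts were 39 and 3, 11.6-fold higher with a 95% counting interval of 3.69 to 58.8 (adjusted p = 0.0214). That call was lost without lipid loading replicate 3 (adjusted p = 0.0567), serum starvation replicate 1 (0.0556) or serum starvation replicate 3 (0.0764). Serum starvation lay below serum reduction in p27 cultures (-4.66 ± 1.12, adjusted p = 0.00215), where the groups did not overlap.

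**Figure D2:**
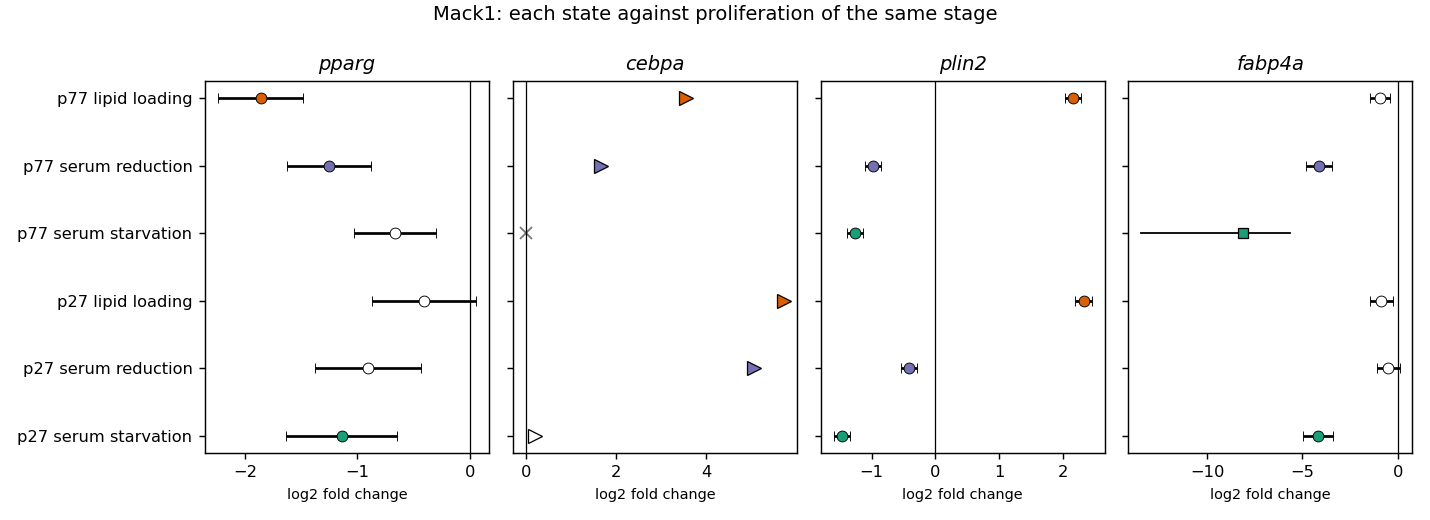
Log2 fold change of 4 genes in each Mack1 state against proliferation of the same stage, one panel per gene with its own axis. Circles are fitted values ± SE, triangles are lower bounds against a group with 0 counts, squares are ratios of counts with a 95% counting interval, and the cross marks groups both at or under the floor; filled symbols passed the test. For plin2 both lipid loading values (2.16 and 2.32) lie above 0 and the 4 serum values below it.

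The droplet coat gene plin2 rose in lipid loading at both stages and fell in serum reduction and in serum starvation at both. In p77 cultures it stood at 428, 426 and 399 CPM in lipid loading, against 94.9, 90.7 and 91.8 CPM in proliferation. In p27 cultures it stood at 849, 802 and 814 CPM in lipid loading, against 161, 164 and 163 CPM in proliferation. The groups lay far apart and each was tight. The rise was 2.16 ± 0.13 on the log2 scale at p77 (adjusted p = 3.79e-14) and 2.32 ± 0.13 at p27 (adjusted p = 1.22e-14). The difference between the stages in this response was -0.16 ± 0.17 and did not pass (adjusted p = 0.575). The highest Mack1 group mean, in p27 lipid loading, was 21.5-fold the lowest, in p77 serum starvation, and the 5 highest groups each lay clear of the next.

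In serum reduction and in serum starvation, confluent cells had less plin2 than proliferating ones. At p77, serum reduction had 44.4, 49.4 and 43.9 CPM (-0.98 ± 0.13, adjusted p = 1.46e-07) and serum starvation 26.7, 44.6 and 43.1 CPM (-1.26 ± 0.13, adjusted p = 1.88e-09). The low value in starvation is replicate 1, and without it the log2 fold change was -1.05 (adjusted p = 8.31e-12). At p27, serum reduction had 119, 117 and 125 CPM (-0.41 ± 0.12, adjusted p = 0.0052) and serum starvation 55.1, 68.7 and 49.1 CPM (-1.47 ± 0.13, adjusted p = 8.79e-11). Every library of these 4 groups lay below every proliferating library of its stage. The fall in serum reduction was larger at p77 than at p27, by -0.56 ± 0.18 (adjusted p = 0.0211). That difference did not pass without p77 serum reduction replicate 1 (-0.54, adjusted p = 0.0515) or replicate 3 (-0.53, adjusted p = 0.0513). The corresponding difference for starvation was 0.21 ± 0.18 (adjusted p = 0.504), and without p77 serum starvation replicate 1 it was 0.41 (adjusted p = 0.0171).

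Set against the other confluent states, lipid loading again had the most plin2. Against serum reduction the log2 fold change was 3.13 ± 0.13 at p77 (adjusted p = 2.35e-16) and 2.73 ± 0.13 at p27 (adjusted p = 1.28e-15). Against serum starvation it was 3.42 ± 0.14 at p77 (adjusted p = 7.37e-17, and 3.21 without serum starvation replicate 1) and 3.79 ± 0.14 at p27 (adjusted p = 3.66e-18). Starvation lay below serum reduction at p27 (-1.05 ± 0.13, adjusted p = 1.76e-07). At p77 this was -0.28 ± 0.13 and did not pass (adjusted p = 0.1). It passed without serum starvation replicate 2 (-0.42, adjusted p = 0.023) or replicate 3 (-0.38, adjusted p = 0.0419), which leave the low replicate 1 in place, and without replicate 1 it was -0.08 (adjusted p = 0.589).

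The fatty acid carrier gene fabp4a was not called higher in lipid loading at either stage, and it was lowest in serum starvation at both. In p77 cultures it had 1.56, 2.25 and 2.19 CPM in lipid loading, 0.280, 0.0457 and 0.284 CPM in serum reduction and 0, 0.0367 and 0 CPM in serum starvation, against 4.10, 2.84 and 4.32 CPM in proliferation. These 4 groups did not overlap in CPM. Serum reduction replicate 2 and serum starvation replicate 2 held 1 count each, so these 2 groups are set apart by library totals alone. Between them 37.8% of all genes tested did not overlap. In p27 cultures it had 0.165, 0.624 and 0.906 CPM in lipid loading, 0.810, 0.698 and 0.625 CPM in serum reduction and 0.0348, 0.0877 and 0.0350 CPM in serum starvation, against 1.18, 0.343 and 1.52 CPM in proliferation. Here proliferation, serum reduction and lipid loading overlapped, and starvation lay below all of them. The endothelial marker sum was likewise highest in p77 proliferation (30.4 to 32.6 CPM), where 2 of its 7 genes reached 1 CPM and cdh5, pecam1a and kdr had 0 counts. In p77 lipid loading, the group with the next highest fabp4a, that sum was 3.25 to 3.91 CPM. It was 13.3 to 15.4 CPM in p27 proliferation, where fabp4a was lower. The part of these markers in the fabp4a levels was not tested.

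Lipid loading differed from proliferation by -0.93 ± 0.55 at p77 (adjusted p = 0.138) and -0.86 ± 0.60 at p27 (adjusted p = 0.215), and neither passed. With only the 2 compared groups fitted the p77 value passed (-0.88, adjusted p = 0.0191). Serum starvation at p77 held 1 count in 3 libraries against 281 in proliferation, 281-fold lower with a counting interval of 49.9 to 11119 (adjusted p = 3.59e-08). At p27 the fall was -4.17 ± 0.80 (adjusted p = 5.09e-05). In serum reduction fabp4a fell at p77 (-4.12 ± 0.66, adjusted p = 4.28e-06), while at p27 the log2 fold change was -0.49 ± 0.58 (adjusted p = 0.488). The difference between the stages was itself past the threshold, at -3.64 ± 0.87 (adjusted p = 0.00283).

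Among the confluent states, fabp4a was higher in lipid loading than in serum starvation. In p77 cultures the counts were 167 and 1, 149-fold higher with a counting interval of 26.4 to 5931 (adjusted p = 8.49e-07), and in p27 cultures the log2 fold change was 3.31 ± 0.82 (adjusted p = 0.00106). Lipid loading exceeded serum reduction at p77 (3.19 ± 0.66, adjusted p = 0.000169) and did not pass at p27 (-0.37 ± 0.60, adjusted p = 0.625). Starvation lay below serum reduction at p27 (-3.69 ± 0.80, adjusted p = 0.000617). At p77 this was 1 count against 15, 15.8-fold lower with an interval of 2.43 to 665 (adjusted p = 0.017). Leaving out replicate 1 or 3 of either p77 group raised that adjusted p to between 0.0509 and 0.0659.

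The second carrier gene, fabp4b, was all but undetected. It had 2 counts in all, both in Mack2 p2 replicate 3 (0.135 CPM), and 31 of 32 libraries had none. Over the 604 M counts of the 24 Mack1 libraries, a count of 0 allows up to 0.00485 CPM. No source used here says how reads that fit both genes were counted, so fabp4a values could include reads of fabp4b or lack reads shared with it.

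**Figure D3:**
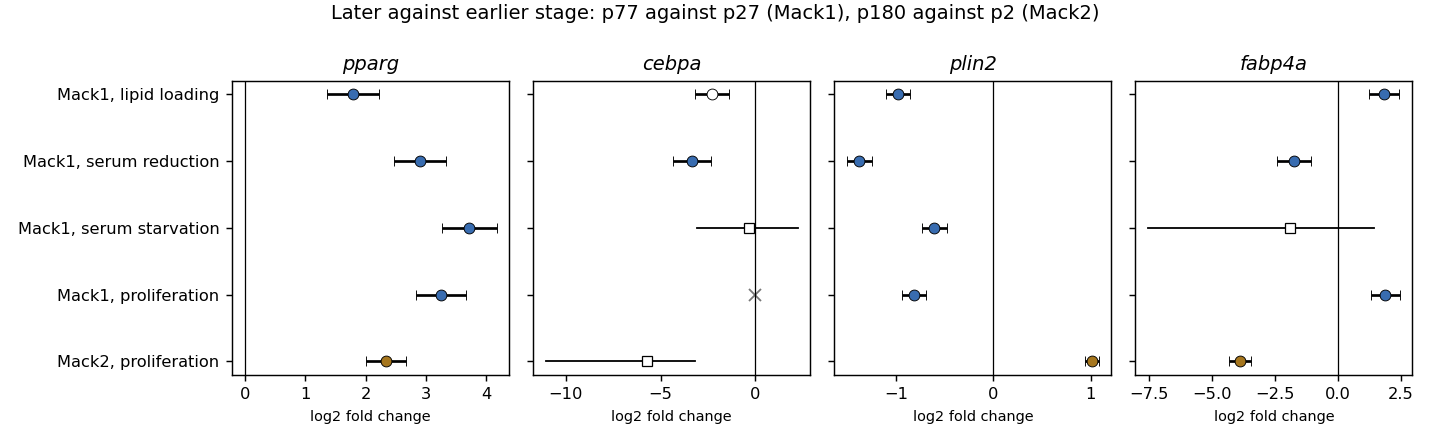
Log2 fold change of 4 genes in the later against the earlier culture stage, p77 against p27 in 4 Mack1 states and p180 against p2 in proliferating Mack2, one panel per gene with its own axis. Circles are fitted values ± SE, squares are ratios of counts with a 95% counting interval, the cross marks groups with 0 counts, and filled symbols passed the test (cebpa in Mack2 was not tested). For pparg all 5 values lie above 0, and for plin2 the 4 Mack1 values lie below 0 and the Mack2 value at 1.01 above it.

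The other genes did not follow pparg across the stages. For plin2 all 4 Mack1 states had less at p77 than at p27. The log2 fold changes were -0.97 ± 0.12 in lipid loading (adjusted p = 4.3e-07), -1.37 ± 0.13 in serum reduction (adjusted p = 3.29e-09), -0.60 ± 0.13 in serum starvation (adjusted p = 0.00104) and -0.81 ± 0.12 in proliferation (adjusted p = 1.47e-05). The starvation value did not pass with only its 2 groups fitted (adjusted p = 0.114), and without p77 replicate 1 it was -0.40 (adjusted p = 0.00181). Of all genes tested, 355 or 2.26% were lower at p77 in all 4 states.

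For fabp4a the direction of the stage difference depended on the state. It was higher at p77 in proliferation (1.89 ± 0.57, adjusted p = 0.0148) and in lipid loading (1.82 ± 0.59, adjusted p = 0.0177), and lower in serum reduction (-1.75 ± 0.67, adjusted p = 0.0473). In serum starvation 1 count stood against 4. Each call was lost without some single library. The first was lost without p27 proliferation replicate 2 (1.48, adjusted p = 0.0872) or p77 proliferation replicate 3 (1.78, adjusted p = 0.0542), and the second without p27 lipid loading replicate 1 (1.39, adjusted p = 0.0953). The third was lost in each of the 6 fits that left out 1 library of its groups (-2.07 to -1.31, adjusted p = 0.0626 to 0.187).

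For cebpa, p77 cultures had less than p27 cultures in serum reduction (9 counts against 128, log2 fold change -3.34 ± 1.02, adjusted p = 0.0146). The call was lost without p27 replicate 2 (-3.09, adjusted p = 0.0524), p77 replicate 1 (-2.69, adjusted p = 0.0718) or p77 replicate 2 (-2.77, adjusted p = 0.0686). In lipid loading the 3 p77 libraries (0.368 to 0.616 CPM) lay below the 3 p27 libraries (2.00 to 2.63 CPM), but the log2 fold change of -2.29 ± 0.90 missed the threshold (adjusted p = 0.0524). It passed with DESeq2 (-2.29, adjusted p = 0.0419), limma-trend (-2.22, adjusted p = 0.0226) and with only its 2 groups fitted (-2.30, adjusted p = 0.00071). In serum starvation 3 counts stood against 4, and in proliferation both stages had 0.

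In proliferating Mack2 cultures the later stage again had more pparg, but plin2 and fabp4a went the other way from Mack1. The gene pparg had 1.79, 1.92, 1.47 and 2.25 CPM at p180, against 0.0985, 0.470, 0.607 and 0.349 CPM at p2. Its log2 fold change was 2.34 ± 0.33 (adjusted p = 1.06e-05), with no overlap and only 2 to 9 counts per p2 library. The gene plin2 had 43.7, 39.5, 41.0 and 46.8 CPM at p180, against 21.2, 22.8, 21.0 and 18.7 CPM at p2, a rise of 1.01 ± 0.07 (adjusted p = 2.1e-09). The gene fabp4a had 0.0560, 0.0550, 0.0544 and 0.0819 CPM at p180, against 0.985, 0.806, 0.809 and 1.45 CPM at p2. It fell by 3.9 ± 0.44 on the log2 scale (adjusted p = 7.13e-07), with 5 counts at p180 against 69 at p2. The gene cebpa, left out of the Mack2 fit, had 0, 0, 0.0544 and 0 CPM at p180, against 0.887, 0.806, 0.270 and 0.639 CPM at p2. That is 1 count against 45, 52.8-fold lower with a counting interval of 9.0 to 2130, and the groups did not overlap. The batch label differs for p2 replicate 4, the only Mack2 library that carries the label of the Mack1 libraries. Without it the log2 fold changes were 2.33 ± 0.39 for pparg (adjusted p = 9.67e-05), 0.96 ± 0.07 for plin2 (adjusted p = 2.4e-08) and -3.67 ± 0.43 for fabp4a (adjusted p = 3.76e-06).

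The difference between the lines was tested in a fit of all 14 proliferating libraries. The stage change of plin2 was higher in Mack2 than in Mack1 by 1.84 ± 0.09 (adjusted p = 3.8e-13), and that of fabp4a was lower by 5.78 ± 0.69 (adjusted p = 3.85e-07). For pparg the difference was -0.89 ± 0.50 and did not pass (adjusted p = 0.141). It passed without Mack1 p27 proliferation replicate 1 (-1.23, adjusted p = 0.0457) or Mack2 p2 replicate 1 (-1.27, adjusted p = 0.0256). Without Mack2 p2 replicate 4 the differences were 1.79 ± 0.09 for plin2 (adjusted p = 1.99e-12), -5.57 ± 0.72 for fabp4a (adjusted p = 2.04e-06) and -0.91 for pparg (adjusted p = 0.185). Among 13637 genes tested in both lines, 4.99% were called higher at the later stage in both, as pparg was. A share of 4.5% was lower in Mack1 and higher in Mack2, as plin2 was, and 4.43% were higher in Mack1 and lower in Mack2, as fabp4a was. The stages of the lines lie at different labelled numbers, and line and batch label coincide for 31 of the 32 libraries.

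Counted over the 4 genes tested, 2 were higher, 1 was lower and 1 did not pass in p77 lipid loading against proliferation, where 65.7% of all genes were called in either direction. In p27 lipid loading 2 were higher and 2 did not pass, where 64.8% of all genes were called. Serum reduction called 1 higher and 3 lower at p77 (background 68.8%) and 1 higher and 1 lower at p27 (61.7%). Serum starvation called 2 lower at p77 (66.9%) and 3 lower at p27 (64.3%), and 0 higher at either stage by edgeR (0 at an unadjusted p under 0.05, and 0 by DESeq2 or limma-trend). So large a part of all genes differed between these states that the share of these 4 genes called is not a result about them. Between stages, p77 against p27, 3 of 4 were called in lipid loading (background 34.3%), 4 of 4 in serum reduction (30.9%), 2 of 4 in serum starvation (21.3%) and 3 of 4 in proliferation (25.6%). In Mack2 all 3 tested genes were called, against 77.7% of all genes there. Between confluent states at p77, 2 of 4 were called in lipid loading against serum reduction (background 57.3%), 4 of 4 in lipid loading against serum starvation (52.6%) and 1 of 4 in serum starvation against serum reduction (29.9%). At p27 these counts were 1 (55.1%), 3 (61.2%) and 3 (37.9%). Of the 3 genes for which the stage difference in a response could be estimated, 0 were called in lipid loading (23.6%), 2 in serum reduction (22.7%) and 0 in serum starvation (13.6%), all by edgeR. At an unadjusted p under 0.05 there was 1 in each of the responses with 0 calls, pparg in lipid loading and fabp4a in serum starvation. DESeq2 called 0 in both, and limma-trend 0 in lipid loading and 1 in serum starvation. For the line difference 2 of 3 were called (56.5%). With so few genes these counts describe the genes named and nothing wider.

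Genes of the same pathways were taken from 9 lists written from general knowledge and matched by RefSeq symbol, with the 5 genes themselves left out. The median log2 fold change of all genes against proliferation was 0.07 in p77 lipid loading and 0.08 in p27 lipid loading. In p77 lipid loading 35.2% of all genes were called higher and 30.6% lower, and in p27 lipid loading 34.3% higher and 30.4% lower.

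**Figure D4:**
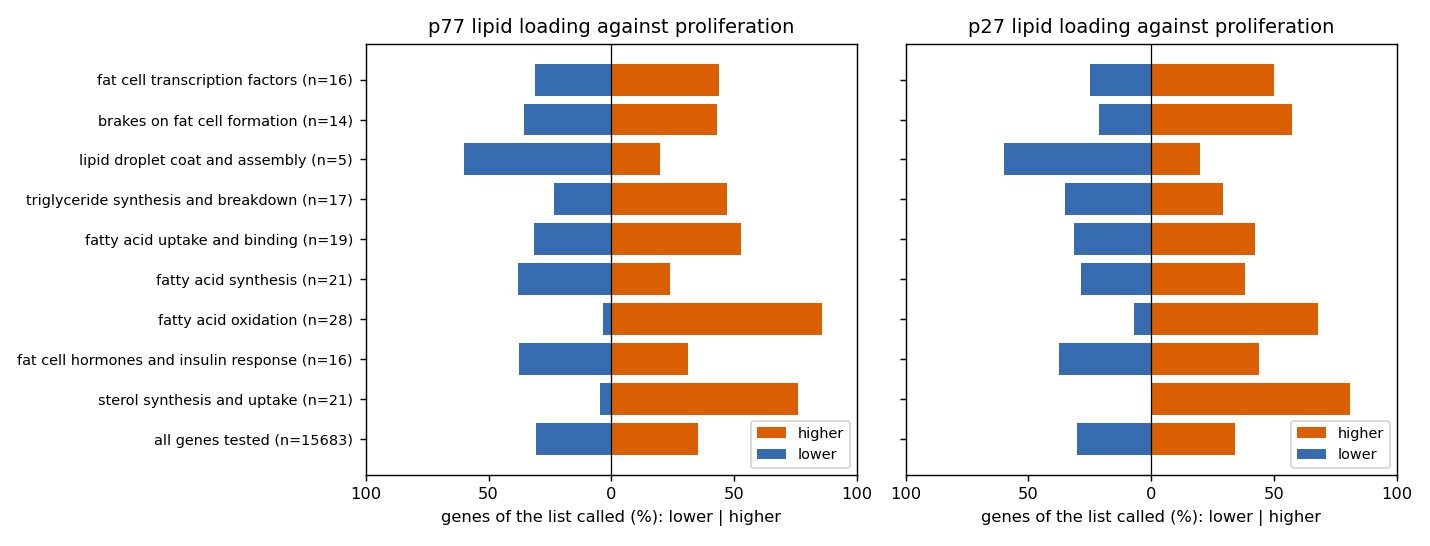
Share of tested genes of each list that were called higher (to the right) or lower (to the left) in lipid loading against proliferation, at p77 and at p27 in separate panels, with all tested genes in a row of their own. Sterol synthesis and fatty acid oxidation have the highest shares called higher, 16 of 21 and 24 of 28 genes at p77. Of the 5 droplet coat and assembly genes tested, 3 were called lower (acsl3a, acsl3b and fitm2), while the coat protein gene plin3 was called higher.

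Other regulators of fat cell formation went both ways in lipid loading. Of 16 transcription factor genes tested, 7 were higher and 5 lower at p77 (median log2 fold change 0.26), and 8 were higher and 4 lower at p27 (median 0.38). The early regulator cebpd, whose product precedes PPARγ and C/EBPα in mammalian fat cell formation, rose in p77 lipid loading (122 ± 8.06 CPM against 48.6 ± 1.85 CPM in proliferation, 1.31 ± 0.17, adjusted p = 1.25e-07). It rose in p27 lipid loading as well (34.8 ± 2.61 CPM against 6.98 ± 1.39 CPM in proliferation, 2.30 ± 0.19, adjusted p = 4.41e-11). The gene srebf1, whose product drives fatty acid synthesis genes, fell by 1.30 ± 0.09 at p77 and by 0.69 ± 0.09 at p27 on the log2 scale. Of 14 genes known as brakes on fat cell formation, 6 were higher and 5 lower at p77 (median -0.16), and 8 were higher and 3 lower at p27 (median 0.78). Among those that fell, the Wnt ligand gene wnt10b had 4.10 ± 1.08 CPM in p77 lipid loading, against 75.6 ± 6.84 CPM in proliferation (-4.22 ± 0.16, adjusted p = 1.27e-18). At p27 wnt10b had 13.1 ± 0.649 CPM in lipid loading, against 63.4 ± 1.60 CPM in proliferation (-2.29 ± 0.14, adjusted p = 1.07e-13). The forkhead factor gene foxo1a fell by 2.63 ± 0.13 at p77 and by 1.96 ± 0.13 at p27. Among those that rose, the pseudokinase gene trib2, whose product targets C/EBPα for breakdown in mammals, had 76.3 ± 3.24 CPM in p77 lipid loading, against 22.6 ± 0.374 CPM in proliferation (1.73 ± 0.10, adjusted p = 3.56e-14), and rose by 1.52 ± 0.10 at p27. Its relative trib3 rose by 1.46 ± 0.11 at p77 and 1.08 ± 0.11 at p27.

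The other droplet genes tested did not all move with plin2. Of 10 such coat and assembly genes in the annotation, 5 passed the low-count filter. Of these 5, 1 was higher and 3 lower at both stages (median -0.68 at p77 and -0.80 at p27). The counts were the same, 1 higher and 3 lower, in serum reduction and in serum starvation against proliferation at both stages, where plin2 fell. In those comparisons between 61.7% and 68.8% of all genes were called. The one that rose in lipid loading was the coat protein gene plin3, by 1.83 ± 0.14 at p77 and 0.50 ± 0.13 at p27. The acyl-CoA synthetase genes acsl3a and acsl3b, whose product in mammals acts at forming droplets, fell, by 2.05 ± 0.14 and 1.02 ± 0.08 at p77 and by 1.45 ± 0.14 and 0.80 ± 0.08 at p27. The droplet assembly gene fitm2 fell by 0.68 ± 0.14 at p77 and by 0.89 ± 0.14 at p27. Of 17 triglyceride genes, 8 were higher and 4 lower at p77, and 5 were higher and 6 lower at p27. The acyltransferase gene gpat3, which starts glycerolipid synthesis, rose at p77 (94.2 ± 11.2 CPM against 24.3 ± 1.66 CPM in proliferation) and at p27 (104 ± 5.87 CPM against 12.4 ± 1.21 CPM in proliferation).

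Among 19 uptake and binding genes, 10 were higher and 6 lower at p77, and 8 were higher and 6 lower at p27. The muscle-type carrier gene fabp3, a relative of fabp4a, was called higher where fabp4a was not. It had 3131 ± 46.8 CPM in p77 lipid loading, against 487 ± 7.86 CPM in proliferation (2.66 ± 0.08, adjusted p = 7.82e-21). The gene angptl4, a fatty acid-responsive inhibitor of lipoprotein lipase, had 226 ± 5.28 CPM in p77 lipid loading, against 10.3 ± 1.27 CPM in proliferation (4.43 ± 0.16, adjusted p = 7.39e-19). The very low density lipoprotein receptor gene vldlr rose by 3.41 ± 0.13 at p77.

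The fatty acid oxidation list had 24 genes higher and 1 lower of 28 at p77 (median 0.78), and 19 higher and 2 lower at p27 (median 0.42). More were higher than lower in the other confluent states too. Serum reduction against proliferation had 17 higher and 4 lower at p77, where 68.8% of all genes were called, 53.6% of them higher. At p27 it had 21 higher and 3 lower (median 0.47), where 61.7% were called, 52.6% of them higher. Serum starvation had 17 higher and 3 lower at p77 (66.9% called, 53.0% of them higher). At p27 it had 11 higher and 5 lower (64.3% called, 53.3% of them higher). Lipid loading against serum reduction had 15 higher and 5 lower at p77 (57.3% called, 51.1% of them higher). At p27 this was 6 higher and 10 lower (55.1% called, 49.8% of them higher). The carnitine palmitoyltransferase gene cpt1b, which admits fatty acids to muscle mitochondria, had 21.6 ± 0.875 CPM in p77 lipid loading, against 0.164 ± 0.152 CPM in proliferation (7.02 ± 0.45). The kinase gene pdk4, which restrains glucose oxidation, rose by 7.65 ± 0.33 at p77 and 4.89 ± 0.27 at p27. Of 28 genes of this list, 17 were higher and 0 lower in p77 than in p27 lipid loading by edgeR, where 18.6% of all genes were higher and 15.7% lower (0 lower also at an unadjusted p under 0.05 and by DESeq2 or limma-trend). The other states did not share this. In proliferation 2 were higher and 5 lower at p77 (25.6% of all genes called), and in serum reduction 6 and 6 (30.9%). In serum starvation 6 were higher and 0 lower by edgeR (21.3%), with 1 lower at an unadjusted p under 0.05 and 0 by DESeq2 or limma-trend. Of 21 sterol synthesis and uptake genes, 16 were higher and 1 lower at p77 (median 1.31), and 17 were higher and 0 lower at p27 by edgeR (median 1.33, with 0 lower at an unadjusted p under 0.05 and by DESeq2 or limma-trend). Most of this list was also higher in serum starvation than in proliferation, with 12 higher and 5 lower at p77 (median 0.37) and 14 and 1 at p27 (median 0.66). In serum reduction 10 were higher and 4 lower at p77 (median -0.02), and 8 and 7 at p27 (median -0.29). The rate-limiting enzyme gene hmgcra rose by 1.77 ± 0.11 at p77 and 2.80 ± 0.12 at p27. Of 21 fatty acid synthesis genes, 5 were higher and 8 lower at p77, and 8 were higher and 6 lower at p27. Here acacb, whose product makes malonyl-CoA at mitochondria, rose by 5.40 ± 0.29 at p77, while the citrate lyase gene aclya fell by 1.53 ± 0.10 and the elongase gene elovl6 by 1.21 ± 0.11. Of 16 hormone and insulin response genes, 5 were higher and 6 lower at p77, and 7 were higher and 6 lower at p27.

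**Figure D5:**
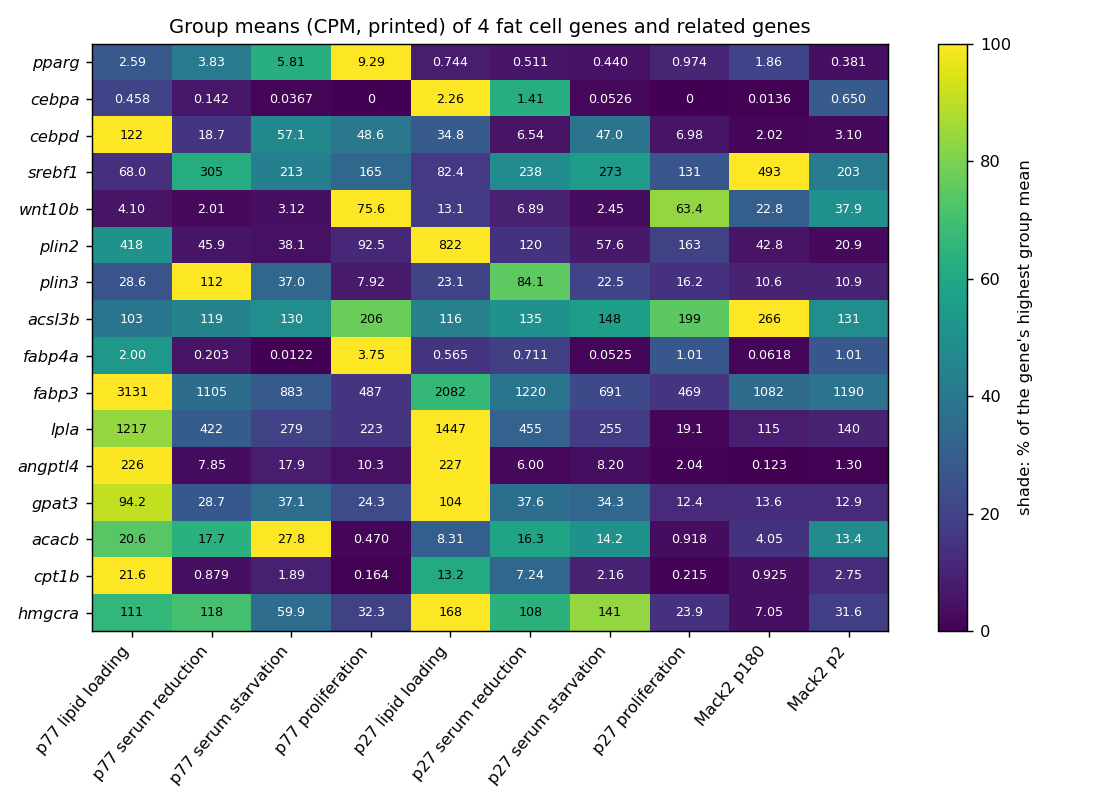
Group mean CPM (printed) of 16 fat cell and lipid genes over the 10 groups, shaded for each gene as a percentage of its own highest group mean. Rows cannot be compared with each other. The genes fabp3 and angptl4 are brightest in lipid loading, fabp4a in p77 proliferation.

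Between the stages of proliferating Mack1, 8 of the 16 transcription factor genes were higher at p77 and 1 was lower (median 0.44, against -0.02 over all genes), where 10.5% of all genes were higher and 15.1% lower. Among them cebpd rose by 2.80 ± 0.19 (48.6 ± 1.85 CPM at p77 against 6.98 ± 1.39 CPM at p27). The list differed less between stages in the other Mack1 states. At p77, 5 were higher and 3 lower in lipid loading (34.3% of all genes called), 5 and 1 in serum reduction (30.9%) and 3 and 1 in serum starvation (21.3%). In Mack2, 4 of 15 were higher at p180 and 9 lower (median -0.23), where 38.6% of all genes were higher and 39.1% lower, and cebpd was lower there (-0.66 ± 0.19, adjusted p = 0.00474), while srebf1 rose by 1.25 ± 0.03. The precursor regulator gene znf423 had 1.06 ± 0.348 CPM at p180, against 11.9 ± 1.71 CPM at p2. Of the 5 other droplet genes tested in Mack2, 2 were higher and 2 lower (median -0.06). Those higher at p180 were acsl3b (1.00 ± 0.04) and acsl3a (0.65 ± 0.05), those lower were ldah (-0.38 ± 0.11) and fitm2 (-0.18 ± 0.06), and plin3 did not pass (-0.06 ± 0.11).

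Other genes with patterns like those of the 4 measured genes were ranked over the 8 Mack1 group means, as Pearson's r of log2(CPM + 1) over 10451 candidate genes. For pparg the nearest were slc1a3a (r = 0.97), nbl1 (0.96) and garnl3 (0.94), and for cebpa they were l3mbtl1, si:busm1-163l24.3 and col11a1a (0.98 each). For plin2 they were si:ch211-79k12.1, mapkbp1 and slc30a1a (0.99 each), and for fabp4a tmem119b (0.96), chp1 (0.95) and arhgap29a (0.95). These are descriptions over 8 group means, which share libraries between genes, drawn as the highest of many candidates. Between pairs of the 4 genes r ran from -0.52 for pparg and cebpa to 0.70 for cebpa and plin2. These pairs were not picked for likeness, so their values cannot be set against those above.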

How the data were processed

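Poly(A) RNA of 32 mackerel cell line libraries was sequenced as paired 150 nt reads without strand information, per the labels' protocols. Of tools, STAR, Salmon 1.10.1, DESeq2 and FastQC are listed, without roles, per the submitters' processing notes. A genome build is not given in the sources used. The authors deposited whole-number counts per gene and a second table whose signal values equal those counts divided by 1 size factor per library. Without strand information, reads from overlapping or antisense genes cannot be told apart.

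From the counts, edgeR 4.0.16 (R 4.3.3) was fitted to Mack1 (24 libraries), Mack2 (8) and the proliferating libraries of both (14), with filterByExpr, TMM scaling and the quasi-likelihood test, over 21 comparisons. CPM used totals scaled over all libraries. A group at 0 counts was set to a floor of 3 counts over the group for folds. Alternatives were DESeq2 1.42.0, RLE scaling, no filter, a filter at 1 CPM on average, limma-trend (limma 3.58.1) on log2(deposited signal + 1), the replicate number as a block, only the compared groups, and leaving out each library. Figures were drawn with matplotlib 3.10.9 in Python 3.11.15.

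Symbols and identifiers match RefSeq's fScoSco1.1 annotation for 24189 of 24189 genes, of which 14498 have a symbol and 9691 a locus number only. Related genes are named by smallest p within a list, up to 4 per list and comparison, where the higher group reached 5 CPM. Exceptions, chosen after their values were seen, are the values of a gene so named in 1 comparison that are given in another, and the lpla sums. The 5 genes, the lists and the tests were chosen with earlier results of these data known.

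Same-numbered Mack1 libraries did not deviate together (correlations of their deviations from -0.208 to 0.132 over 84 pairs, 3 above 0.1), so the numbers were not taken to pair samples. Counts of the 24 Mack1 libraries were simulated with the spread estimated in the fit, and changes were set in p27 lipid loading against proliferation. The fit called 74% of 2-fold and 94% of 4-fold changes. Changed genes were drawn only from those with a mean over 1 CPM. These shares therefore do not cover genes under that level. The simulation set 100 genes to each size of change and left 15109 unchanged, while in the data 64.8% of all genes were called there. The adjustment over all genes works differently at such unlike shares, so the simulated shares do not describe this comparison itself.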

Additional observations from a re-analysis of the deposited data

Results flagged for a closer look

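Of 9 sets of 4 Mack2 libraries examined for a library far from the others, 3 held one by Dixon's criterion. They were cebpa in p180 replicate 3 (0.0544 CPM, 1 count, the others at 0), fabp4a in p180 replicate 4 (0.0819 CPM, 2 counts against 1 in each of the others) and fabp4b in p2 replicate 3 (0.135 CPM, 2 counts, the others at 0). All 3 rest on 1 or 2 counts, where the criterion is met almost by construction, so its usual chance rate of about 1 in 20 does not apply and nothing is read from them.

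Responses that differed between stages or lines by a test of the difference itself were 4. In serum reduction the change of plin2 was lower at p77 than at p27 by 0.56 ± 0.18 (log2 difference -0.56, adjusted p = 0.0211 by edgeR), and that of fabp4a was lower (-3.64 ± 0.87, adjusted p = 0.00283 by edgeR). In proliferation the stage change of plin2 was higher in Mack2 than in Mack1 (1.84 ± 0.09) and that of fabp4a was lower (-5.78 ± 0.69).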

How the results depend on the processing

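No called direction reversed among the member comparisons under any alternative run: 1023 alternative values kept the same side of the threshold, 31 lost it and 16 gained it, all as log2 fold changes with edgeR unless named. Runs whose filter dropped a gene, or in which both compared groups held 0 counts, gave no value and are in none of these counts. The filter at 1 CPM gave 62 values, against 78 for the replicate block. Values that changed sign where neither run passed are counted as the same side. The replicate block kept all 78 member values on their side (Mack2 plin2 1.01, pparg 2.32, fabp4a -3.93), as RLE scaling did. With only the compared groups fitted, serum starvation against proliferation changed for pparg at p27 (-1.13, adjusted p = 0.104) and p77 (-0.60, adjusted p = 0.0353), p77 lipid loading against proliferation for fabp4a (-0.88, adjusted p = 0.0191), and p77 against p27 for plin2 in serum starvation (-0.60, adjusted p = 0.114) and cebpa in lipid loading (-2.30, adjusted p = 0.00071). The last also passed with DESeq2 (-2.29) and limma-trend (-2.22). The p77 serum reduction value of cebpa was lost with limma-trend (1.16, adjusted p = 0.169), and p77 against p27 for fabp4a in serum reduction with no filter (-1.75, adjusted p = 0.0558). Leaving out 1 library at a time gave, against proliferation, -1.52 to -0.65 for pparg in p27 serum starvation, -1.53 to -0.56 for pparg in p27 serum reduction and 4.86 to 5.50 for cebpa in p77 serum reduction. The cebpa range is over 5 fits only. It leaves out the fit without p77 serum reduction replicate 3, where neither group held a count and no difference remained. For p77 against p27 it gave 1.48 to 2.30 for fabp4a in proliferation, 1.39 to 2.33 in lipid loading and -2.07 to -1.31 in serum reduction, and -8.21 to -2.69 for cebpa in serum reduction. Fitted values of cebpa against groups at 0 counts depend on the prior count and are no bounds. Fits of only the compared groups called fewer genes in p77 serum starvation against serum reduction (2634 against 4685), p77 against p27 serum starvation (1348 against 3345) and the stage difference in starvation (1369 against 2132). RLE scaling lowered the median of all genes in the line comparison to -0.04, against 0.06, and the higher share of its calls to 47.6%, against 55.4%. Of 24 alternative rankings of genes by likeness, 15 left the top 3. The cause of these changes was not tested. Levels under 1 CPM rest on few counts, so depth limits what can be seen for cebpa and fabp4a, and for pparg at p27 and in Mack2 p2.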
